A study of Mus musculus with 12 samples.

Results

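The genes described here are 9 genes of antibody sensing and immune receptor signalling in mouse dorsal skin, out of 36400 genes in the deposited table. They were taken by name: the Fcγ receptors Fcgr1, Fcgr2b, Fcgr3 and Fcgr4, the neonatal Fc receptor Fcgrt, the adaptors Fcer1g and Tyrobp, the kinase Syk and the receptor Lilrb4a. All 9 were found once and all 9 reached a mean of 0.1 FPKM (fragments per kilobase of transcript, scaled for library size), as did 21890 genes in all. Dorsal skin RNA came from 4 groups of female BALB/c mice, aged 6 weeks at the start and sampled on day 30, with 3 libraries per group. The methods describe 6 mice per group and do not say how the libraries were drawn from them. Control mice (labelled Solvent) were painted with vehicle, acetone mixed with olive oil. The DNCB group was sensitized with 1% and challenged with 0.5% of the hapten 2,4-dinitrochlorobenzene, which gives a dermatitis resembling atopic dermatitis. The scMSC group received the same DNCB and 4 doses of 2000000 human umbilical cord mesenchymal stem cells (MSCs) between days 13 and 25, each as 100 µL under the skin. The scivMSC group received the same doses, of which 50 µL went under the skin and 50 µL was given by the tail vein. The methods describe no injection without cells, so an effect of injection and one of the cells cannot be told apart.

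Fc receptors bind the constant part of antibodies and so tie antibody to the cells that act on it. The activating receptors encoded by Fcgr1, Fcgr3 and Fcgr4 signal through the common γ chain, the product of Fcer1g, which also serves the high-affinity IgE receptor of mast cells. The γ chain and DAP12, the product of Tyrobp, carry an activation motif (ITAM) that recruits the kinase Syk once Src-family kinases have phosphorylated it. The receptor encoded by Fcgr2b, and LILRB4 from Lilrb4a, carry inhibitory motifs (ITIMs) that recruit phosphatases. The product of Fcgrt, called FcRn, does not signal in this way: it pairs with β2-microglobulin and returns IgG and albumin from endosomes to the cell surface. In skin these genes are used mainly by macrophages, neutrophils, mast cells and dendritic cells, whereas Fcgrt is also active in endothelium and epithelium.

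Of the 9 genes, 4 lie near each other on chromosome 1 of GRCm38. Fcgr2b (chr1:170958617-170976547, minus strand), Fcgr4 (chr1:171018920-171029761, plus strand), Fcgr3 (chr1:171051174-171064935, minus strand) and Fcer1g (chr1:171229572-171234365, minus strand) span 275749 bases. No other protein-coding gene lies between Fcgr2b, Fcgr4 and Fcgr3, and 7 lie between Fcgr3 and Fcer1g. The remaining genes are Fcgr1 (chr3:96282909-96293969), Lilrb4a (chr10:51490956-51496611), Syk (chr13:52583173-52648792), Fcgrt (chr7:45092990-45103851) and Tyrobp (chr7:30413760-30417582). Of the 100-base stretches of Lilrb4a transcripts, 87.8% also occur in Lilr4b or in Gm49339, which overlaps it on the same strand, so the split of reads between these entries is uncertain. Fcgr2b shared 2.12% and Fcgr3 2.7% of such stretches with other genes, and the other 6 shared none.

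RefSeq gave upstream windows of GRCm38.p6 for 7 of the 9 genes. The windows of the 3 activating receptors and of the chain they share are printed because these genes move together below. Capitals mark matches, on either strand, to the PU.1 core GAGGAA (read as TTCCTC on the opposite strand), to the interferon-γ-activated sequence TTCNNNGAA, to the C/EBP site TTGCNNCAA and to the interferon-response sequence, which is GAAA, any 2 bases and GAAA. Each window holds 250 bases, reads 5′ to 3′ on the strand of the gene and ends at the base before the start annotated by RefSeq. For Fcgr3 that start lies inside the gene span given above, whose 5′ end is at base 171064935. The annotations thus place the start of Fcgr3 differently.

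The Fcgr1 window is chr3:96293970-96294219 on the minus strand, that of Fcgr3 is chr1:171059404-171059653 on the minus strand, that of Fcgr4 is chr1:171018676-171018925 on the plus strand and that of Fcer1g is chr1:171234350-171234599 on the minus strand.
Fcgr1: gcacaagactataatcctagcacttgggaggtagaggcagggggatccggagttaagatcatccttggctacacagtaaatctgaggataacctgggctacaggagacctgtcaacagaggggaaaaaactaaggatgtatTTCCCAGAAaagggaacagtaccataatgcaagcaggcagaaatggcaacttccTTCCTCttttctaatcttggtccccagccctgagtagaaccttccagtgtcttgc
Fcgr3: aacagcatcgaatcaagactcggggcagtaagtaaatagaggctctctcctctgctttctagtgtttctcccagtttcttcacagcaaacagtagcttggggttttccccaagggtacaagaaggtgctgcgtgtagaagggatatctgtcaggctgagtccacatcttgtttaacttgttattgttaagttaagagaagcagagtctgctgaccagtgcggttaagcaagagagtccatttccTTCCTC
Fcgr4: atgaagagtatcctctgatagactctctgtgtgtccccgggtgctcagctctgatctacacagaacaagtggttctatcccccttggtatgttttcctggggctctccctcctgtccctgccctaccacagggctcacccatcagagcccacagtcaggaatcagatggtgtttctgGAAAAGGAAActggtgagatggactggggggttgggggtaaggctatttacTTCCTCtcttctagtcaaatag
Fcer1g: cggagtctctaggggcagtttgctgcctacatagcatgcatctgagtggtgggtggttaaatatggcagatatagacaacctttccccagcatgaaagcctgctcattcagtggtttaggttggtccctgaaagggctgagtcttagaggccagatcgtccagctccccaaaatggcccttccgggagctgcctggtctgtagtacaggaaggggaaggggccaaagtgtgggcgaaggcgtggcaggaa

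The PU.1 core began 55 bases before the start of Fcgr1, 22 bases before that of Fcgr4 and, for Fcgr3, 6 bases before the start of the printed window and 15 bases before a second start. Fcgr1 also held the interferon-γ-activated sequence and Fcgr4 the interferon-response sequence. None of the 4 motifs was found in the windows of Fcer1g, Fcgr2b or Fcgrt, nor in that of the first start of Syk, and the second start of Syk had a PU.1 core 9 bases before it. Of 32851 RefSeq promoters, 23.3% held the PU.1 core in windows of the same length, 7.02% the interferon-γ-activated sequence, 2.98% the interferon-response sequence and 1.74% the C/EBP site. These matches describe the letters and were not tested as binding sites.

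Each library held between 63877153 and 75134001 estimated counts. A pair of libraries stood apart for macrophage genes and touch every result below. The summed FPKM of 13 macrophage and monocyte markers ran from 234 to 901 in control skin, with the top value in replicate 3, and from 58.3 to 491 in scivMSC skin, with the lowest value in replicate 3. The range was 799 to 891 in DNCB skin and 193 to 462 in scMSC skin. The labels name no batch or day for these libraries, and the comparisons of DNCB with control and with scivMSC are also given without the replicate 3 of that group. In bulk tissue, fewer cells of a type and less RNA per cell cannot be told apart.

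Fcer1g and Lilrb4a were higher in DNCB skin than in the skin of each other group. Against control, 3 of the 9 genes rose (Fcer1g, Syk and Lilrb4a), against 6.59% of all tested genes called higher. Against scMSC, 4 rose (Fcgr4, Fcer1g, Tyrobp and Lilrb4a, with 3.84% of all genes), and against scivMSC 3 rose (Fcer1g, Tyrobp and Lilrb4a, with 2.33%). No gene of the set was called lower in DNCB, where 7.57%, 4.66% and 3.13% of all genes were. A gene was called when edgeR's quasi-likelihood test gave an adjusted p under 0.05 over all 21890 genes and the log2 fold change was beyond 1 in either direction. Against control the 9 genes had a median log2 fold change of 1.55, beside 0.02 over all tested genes. The medians were 2.21 for scMSC and 2.25 for scivMSC, beside -0.02 over all genes in both. The 3 comparisons share the DNCB libraries and are not independent.

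Every DNCB library lay above every control library for 7 of the 9 genes, all but Fcgr1 and Fcgrt, where 31.7% of all tested genes did so. All 9 genes were separated in this way from scMSC (17.1% of all genes) and 8 from scivMSC, all but Fcgrt (16.3%).

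**Figure D1:**
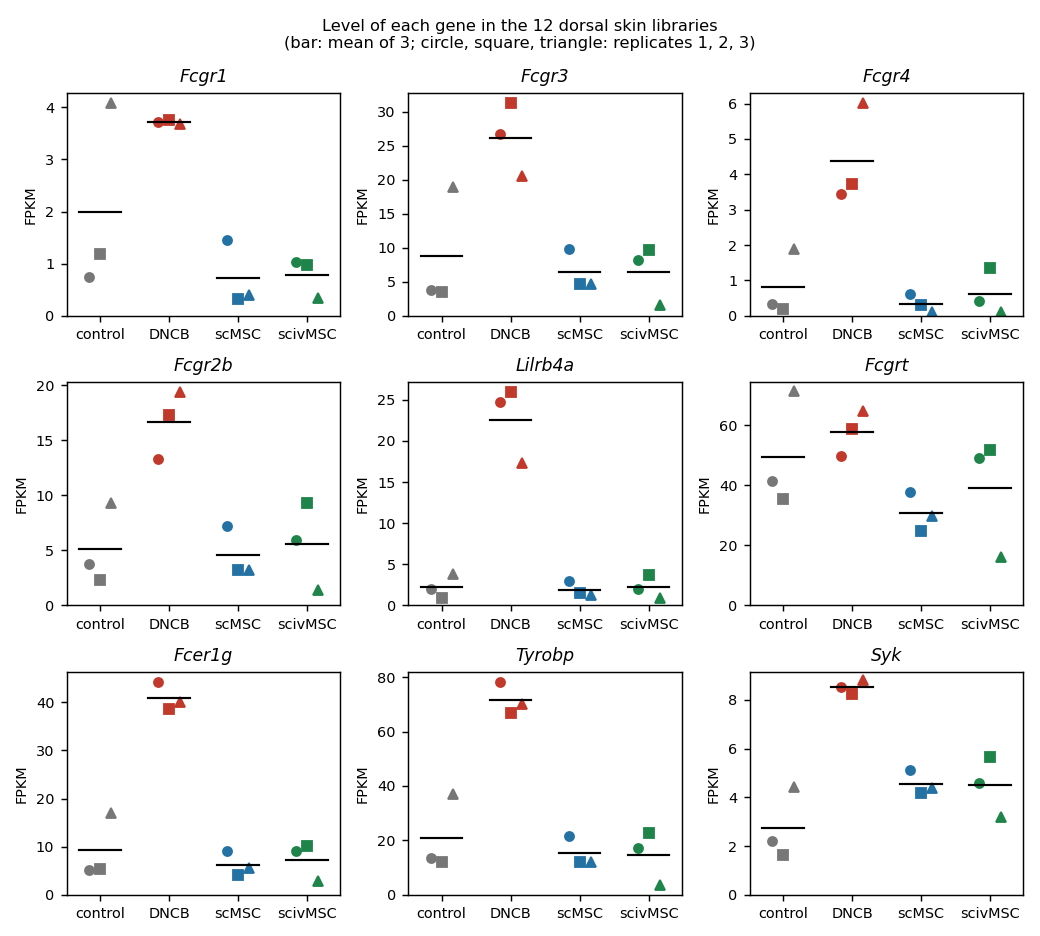
FPKM of the 9 genes (vertical axes from 0) in the 12 libraries, by group; black bars are group means of 3 libraries, and circles, squares and triangles are replicates 1, 2 and 3. Control replicate 3 is the highest control library in all 9 panels, and the 3 DNCB libraries of Lilrb4a (17.3 to 25.9 FPKM) lie above all 9 others (0.885 to 3.84 FPKM).

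Fcer1g, the γ chain, was at 44.3, 38.6 and 40.1 FPKM in the DNCB libraries. It was at 5.16, 5.45 and 17 FPKM in control, at 9.14, 4.21 and 5.49 FPKM in scMSC and at 9.04, 10.1 and 2.8 FPKM in scivMSC libraries. The DNCB libraries were thus close together and at least 38.6 FPKM, and no other library passed 17 FPKM. Fcer1g rose in DNCB by 2.00 ± 0.51 (log2, SE, n = 3 per group) against control, with an adjusted p of 0.0165 from edgeR. The rise was 2.69 ± 0.53 against scMSC (adjusted p = 0.00847, edgeR) and 2.50 ± 0.52 against scivMSC (adjusted p = 0.0188, edgeR). Without control replicate 3 the difference from control was 2.68 (adjusted p = 0.00542), and without scivMSC replicate 3 that from scivMSC was 2.12 (adjusted p = 0.0495). Against control the call was lost without control replicate 1 (log2 1.68, adjusted p = 0.0715) or 2 (log2 1.70, adjusted p = 0.0672). Against scivMSC it was lost without DNCB replicate 1 (adjusted p = 0.0577), DNCB replicate 2 (0.0534) or scivMSC replicate 1 (0.0585), with log2 fold changes of 2.44, 2.53 and 2.67.

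Tyrobp, which encodes DAP12, was the most abundant of the 9 genes in DNCB skin, at 78.3, 66.9 and 70 FPKM. It was at 13.4, 12 and 37.1 FPKM in control, at 21.6, 12.1 and 12.2 FPKM in scMSC and at 17.2, 22.8 and 3.74 FPKM in scivMSC libraries. The DNCB range did not touch the others, and control replicate 3 was the nearest library. Tyrobp rose by 2.21 ± 0.57 (log2, SE) against scMSC (adjusted p = 0.0287, edgeR) and by 2.32 ± 0.57 against scivMSC (adjusted p = 0.0333, edgeR). Against control it was 1.63 ± 0.56 and was not called (adjusted p = 0.0555). That difference was called at 2.24 without control replicate 3 (adjusted p = 0.0246) and at 1.59 without scivMSC replicate 3 (adjusted p = 0.0139). It was also called in 7 of 9 other settings, DESeq2 among them (1.61, adjusted p = 0.0119). Of these settings, 1 lost the call against scMSC and 2 that against scivMSC. The call against scMSC was lost without DNCB replicate 1, 2 or 3 (adjusted p = 0.0748, 0.0649 and 0.0642) and without scMSC replicate 2 or 3 (0.103 and 0.0959), at log2 2.07 to 2.25. The call against scivMSC was lost without DNCB replicate 1, 2 or 3 (adjusted p = 0.0918, 0.0807 and 0.0781) and without scivMSC replicate 1 or 3 (0.0968 and 0.0540), at log2 1.86 to 2.45.

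Syk, the kinase that docks on both adaptors, was at 8.51, 8.23 and 8.8 FPKM in DNCB libraries. Control libraries had 2.19, 1.62 and 4.42 FPKM, scMSC libraries 5.11, 4.18 and 4.38 FPKM and scivMSC libraries 4.59, 5.65 and 3.21 FPKM. The DNCB libraries lay above all others, and all 6 MSC libraries lay above control replicates 1 and 2. Syk rose by 1.47 ± 0.29 (log2, SE) against control (adjusted p = 0.00465, edgeR), and this call held without each library in turn, at 1.90 without control replicate 3. Against scMSC it was 0.88 ± 0.29 (adjusted p = 0.0717) and against scivMSC 0.93 ± 0.29 (adjusted p = 0.0757), or 0.75 without scivMSC replicate 3 (0.236), and none of these was called. The ratio of Syk to Fcer1g was 0.208 ± 0.0141 (SD, n = 3) in DNCB skin, below that of each of the 9 other libraries. It was 0.327 ± 0.087 in control, 0.784 ± 0.218 in scMSC and 0.739 ± 0.354 in scivMSC skin.

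**Figure D2:**
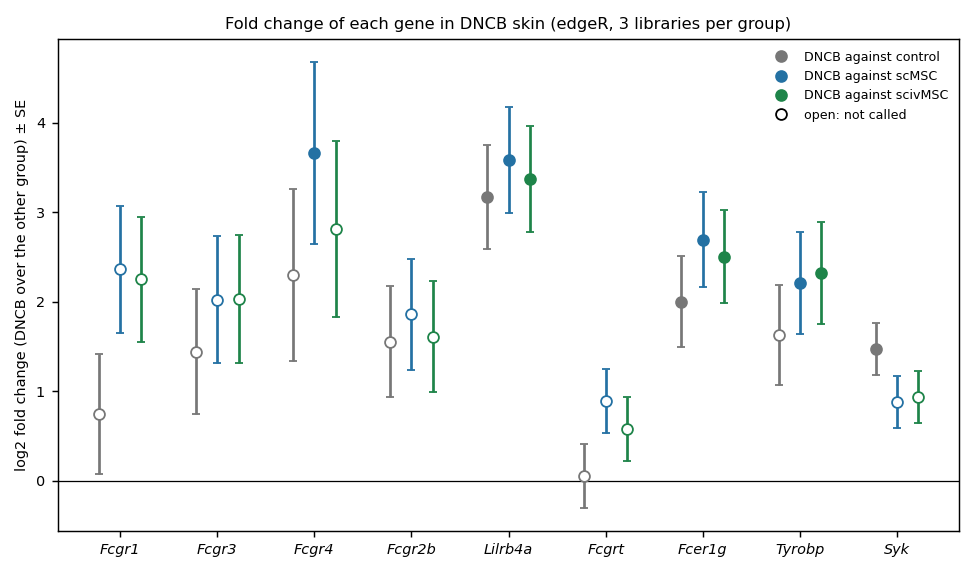
Log2 fold change of DNCB over control, scMSC and scivMSC for each of the 9 genes (points, with SE as bars; 3 libraries per group, edgeR); filled points are called and open points are not. Lilrb4a and Fcer1g are filled in all 3 comparisons, and Fcgrt against control is the point nearest to 0 (0.05).

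Among the activating receptors, Fcgr3 (CD16), a low-affinity IgG receptor, was the most abundant, at 26.7, 31.3 and 20.6 FPKM in DNCB skin. It was at 3.73, 3.48 and 19 FPKM in control, at 9.79, 4.66 and 4.74 FPKM in scMSC and at 8.21, 9.67 and 1.59 FPKM in scivMSC libraries. Control replicate 3 came just below the lowest DNCB library, and no other library was above 9.79 FPKM. The log2 fold changes were 1.44 ± 0.70 against control (adjusted p = 0.160), 2.02 ± 0.71 against scMSC (0.0929) and 2.03 ± 0.71 against scivMSC (0.111), and none was called by edgeR. The difference from control was 2.60 and was called once control replicate 3 was left out (adjusted p = 0.0194). The difference from scMSC was 2.04 and was called without control replicate 3 (adjusted p = 0.0376) or scivMSC replicate 3 (0.0476), which enter the shared estimate of spread. Against scivMSC it was 1.57 without scivMSC replicate 3 (adjusted p = 0.246). In 9 other settings Fcgr3 was called 1 time against control, 2 times against scMSC and 1 time against scivMSC.

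Fcgr4 (CD16-2), a receptor for IgG2a and IgG2b known from monocytes and neutrophils, was at 3.44, 3.74 and 6.01 FPKM in DNCB libraries. Control libraries had 0.325, 0.203 and 1.9 FPKM, scMSC libraries 0.619, 0.297 and 0.0944 FPKM and scivMSC libraries 0.423, 1.34 and 0.122 FPKM. The lowest of these values rest on few reads, with 10 estimated counts in scMSC replicate 3 and 12 in scivMSC replicate 3. About 4 estimated counts may correspond to 1 fragment, but the counting tool is not given. Fcgr4 rose by 3.66 ± 1.02 (log2, SE) against scMSC (adjusted p = 0.0391, edgeR). It was 2.30 ± 0.96 against control (adjusted p = 0.106) and 2.81 ± 0.98 against scivMSC (adjusted p = 0.109), neither called. Without control replicate 3 the difference from control was 3.78 and was called (adjusted p = 0.0268), and without scivMSC replicate 3 that from scivMSC was 2.33 (adjusted p = 0.260). In 9 other settings Fcgr4 was called 3 times against control and 3 times against scivMSC, and 1 lost the call against scMSC. The call against scMSC was lost without DNCB replicate 1, 2 or 3 (adjusted p = 0.0726, 0.0769 and 0.10), scMSC replicate 2 or 3 (0.124 and 0.114) or scivMSC replicate 1 (0.0531), at log2 3.22 to 3.81.

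Fcgr1 (CD64), the high-affinity IgG receptor, was at 3.71, 3.76 and 3.67 FPKM in DNCB libraries. It was at 0.738, 1.18 and 4.09 FPKM in control, at 1.45, 0.314 and 0.4 FPKM in scMSC and at 1.03, 0.973 and 0.345 FPKM in scivMSC libraries. Control replicate 3 was the highest of the 12, so DNCB and control overlapped, whereas DNCB and both MSC groups did not. No difference of Fcgr1 was called: 0.74 ± 0.67 (log2, SE) against control (adjusted p = 0.468), 2.36 ± 0.71 against scMSC (0.0515) and 2.25 ± 0.70 against scivMSC (0.0783). The difference from control was 1.69 without control replicate 3 (adjusted p = 0.0983), and it ran from 0.32 to 1.69 with 1 library left out. Without scivMSC replicate 3 that from scivMSC was 1.90 (adjusted p = 0.221). Against scMSC it was called without control replicate 1 (adjusted p = 0.0435), control replicate 3 (0.0279), scMSC replicate 1 (log2 3.32, 0.0171) or scivMSC replicate 3 (0.0447). Against scivMSC it was called without control replicate 3 (adjusted p = 0.0468) or scMSC replicate 1 (0.0445), at log2 2.25. In 9 other settings Fcgr1 was called 6 times against scMSC, 3 times against scivMSC and 0 times against control. DESeq2 called it against scMSC (2.37, adjusted p = 0.00302) and scivMSC (2.27, 0.00646).

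Fcgr2b (CD32B), the inhibitory Fcγ receptor, was at 13.3, 17.3 and 19.4 FPKM in DNCB libraries. Control libraries had 3.79, 2.26 and 9.33 FPKM, scMSC libraries 7.18, 3.25 and 3.23 FPKM and scivMSC libraries 5.91, 9.27 and 1.42 FPKM. The 3 DNCB libraries were above all others. The log2 fold changes were 1.55 ± 0.62 against control (adjusted p = 0.0917), 1.86 ± 0.62 against scMSC (0.0790) and 1.61 ± 0.62 against scivMSC (0.145), and edgeR called none. Without control replicate 3 (log2 2.20, adjusted p = 0.0408) or scivMSC replicate 3 (1.51, 0.0412) the difference from control was called, and without scivMSC replicate 3 that from scMSC was called (1.87, 0.0288). The difference from scivMSC was then 1.15 (adjusted p = 0.287). In 9 other settings Fcgr2b was called 3 times against control, 2 times against scMSC and 1 time against scivMSC.

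The 4 Fcγ receptors together summed to 51 ± 4.58 FPKM (SD, n = 3) in DNCB skin. The sum was 16.7 ± 15.3 in control, 12 ± 6.09 in scMSC and 13.4 ± 9.08 FPKM in scivMSC skin. The proportions of Fcgr3 and Fcgr2b moved less than their levels. Fcgr3 made up 51.3 ± 8.55% in DNCB and 49.2 ± 5.93% in control, and Fcgr2b 32.7 ± 5.67% and 34.4 ± 8.76%. Fcgr1 held 7.31 ± 0.587% in DNCB and 12.3 ± 3.97% in control, and these libraries did not overlap. Its share was 5.34 ± 2.03% in scMSC and 7.04 ± 2.69% in scivMSC. Fcgr4 held 8.68 ± 2.98% in DNCB, beside 4.06 ± 1.37% in control, 2.62 ± 1.31% in scMSC and 4.17 ± 1.87% in scivMSC. Its ratio to Fcgr2b was 0.258, 0.216 and 0.309 in the DNCB libraries and at most 0.204, in control replicate 3, in the 9 others. The ratio of Fcgr3 to Fcgr2b overlapped between DNCB (1.06 to 2.01) and the other libraries (0.985 to 2.03). These shares and ratios are descriptions and were not tested.

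**Figure D3:**
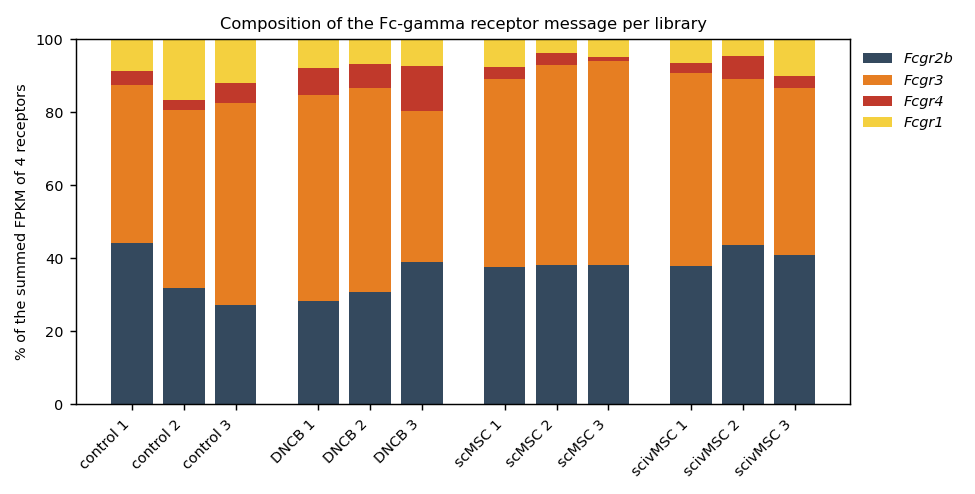
Share of each of 4 Fcγ receptors in their summed FPKM (stacked bars to 100%), 1 bar per library. Fcgr3 and Fcgr2b make up most of every bar, and the Fcgr4 segment is 6.66% to 12.1% in DNCB and at most 6.28% in the other libraries.

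Lilrb4a had the largest fold changes of the set against control and scivMSC. It was at 24.7, 25.9 and 17.3 FPKM in DNCB libraries. It was at 1.98, 0.922 and 3.84 FPKM in control, at 2.94, 1.45 and 1.21 FPKM in scMSC and at 2, 3.72 and 0.885 FPKM in scivMSC libraries. The lowest DNCB library thus stood well clear of control replicate 3, the highest of the others. Lilrb4a rose by 3.17 ± 0.58 (log2, SE, n = 3 per group) against control, with an adjusted p of 0.00323 from edgeR. The rise was 3.58 ± 0.59 against scMSC (adjusted p = 0.00406, edgeR) and 3.37 ± 0.59 against scivMSC (adjusted p = 0.00913, edgeR). All 3 calls held without each library in turn and under the other settings tried, at 3.70 against control without control replicate 3 and 3.00 against scivMSC without scivMSC replicate 3. Summing Lilrb4a with Lilr4b and Gm49339, the entries it shares sequence with, gave 50.1, 44.7 and 37.3 FPKM in DNCB and 1.58 to 7.21 FPKM in the 9 other libraries. The separation therefore did not depend on how reads were divided among these entries. Gm49339 itself was listed at 11.5, 4.48 and 8.41 FPKM in DNCB, at up to 0.612 FPKM in scMSC, at up to 0.136 FPKM in control and at 0 in all 3 scivMSC libraries.

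Fcgrt, which encodes FcRn, was abundant in all groups and was not called in any comparison. It was at 49.7, 58.7 and 64.9 FPKM in DNCB, at 41.4, 35.6 and 71.6 FPKM in control, at 37.7, 24.7 and 29.9 FPKM in scMSC and at 49.2, 51.8 and 16.1 FPKM in scivMSC libraries. DNCB overlapped control and scivMSC but lay above scMSC. The log2 fold changes were 0.05 ± 0.36 against control (adjusted p = 0.938, 95% interval -0.74 to 0.84), 0.89 ± 0.36 against scMSC (0.146) and 0.58 ± 0.36 against scivMSC (0.384). The difference from control was below 0 without control replicate 1 (-0.0813), control replicate 2 (-0.159) or DNCB replicate 3 (-0.0322), and was 0.33 without control replicate 3. The difference from scivMSC was 0.21 without scivMSC replicate 3 (adjusted p = 0.733). Fcgrt exceeded Tyrobp in each of the 9 libraries outside DNCB and was below it in each of the 3 DNCB libraries. B2m, which encodes the β2-microglobulin that FcRn needs, was at 442 ± 39.2 FPKM in DNCB and 716 ± 155 in control (log2 -0.87 ± 0.24, adjusted p = 0.0234), short of the fold needed for a call. The ratio of B2m to Fcgrt was 7.76 ± 1.37 in DNCB skin and 15.1 ± 2.4 in control skin, and DNCB libraries overlapped with MSC libraries.

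Within DNCB skin the levels ran from Tyrobp (71.7 ± 5.89 FPKM) through Fcgrt (57.8 ± 7.65), Fcer1g (41 ± 2.91), Fcgr3 (26.2 ± 5.38), Lilrb4a (22.6 ± 4.67), Fcgr2b (16.7 ± 3.09), Syk (8.51 ± 0.286) and Fcgr4 (4.39 ± 1.41) to Fcgr1 (3.71 ± 0.0453). Neighbours overlapped for Fcgr3 and Lilrb4a, for Lilrb4a and Fcgr2b, and for Fcgr4 and Fcgr1. In control skin the order began with Fcgrt (49.5 ± 19.3), Tyrobp (20.8 ± 14.1) and Fcer1g (9.22 ± 6.78), and it ended with Lilrb4a (2.25 ± 1.48), Fcgr1 (2 ± 1.82) and Fcgr4 (0.81 ± 0.948). Neighbouring genes in that order, Fcgrt and Tyrobp included, overlapped across the control libraries.

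Cell type markers moved with these genes, and their part in the results was not tested. Of all tested genes, 6.59%, 3.84% and 2.33% were called higher in DNCB against control, scMSC and scivMSC. The shares called lower were 7.57%, 4.66% and 3.13%, and these shares apply to every marker list here and in the next paragraph. None of the 13 macrophage and monocyte markers was called in DNCB against control by edgeR, DESeq2 or limma, with 1 at an unadjusted p under 0.05 in edgeR. Their log2 fold changes had a median of 0.54 there, beside 0.02 over all tested genes. Their summed FPKM averaged 850 in DNCB and 463 in control skin, but control replicate 3 (901) lay above the DNCB range (799 to 891). The lack of calls therefore does not show that these markers were unchanged. The 13 markers were not tested again without that library. Against scMSC 1 was called by edgeR, Itgam (4 at an unadjusted p under 0.05, 4 called by DESeq2 and 1 by limma), and against scivMSC 0 were called by edgeR (4 at an unadjusted p under 0.05, 4 called by DESeq2 and 0 by limma). The 11 neutrophil markers summed to 2470 to 3440 FPKM in DNCB skin. Their sum was 121 to 208 FPKM in control, 16.1 to 65.5 in scMSC and 35 to 179 in scivMSC skin, and 9, 8 and 7 of the 11 were called higher in DNCB. Ly6g, which marks neutrophils, was at 0 in all 9 libraries outside DNCB, and Mpo was called lower in DNCB than in control. The 8 mast cell markers summed to 114 to 137 FPKM in DNCB and 23.4 to 40 in control, with 3 called. That sum ran from 55.1 to 123 FPKM in scMSC and from 19.8 to 119 in scivMSC skin, so the highest MSC libraries lay within the DNCB range. Of the 8 mast cell markers, 1 was called higher in DNCB than in scMSC and 1 than in scivMSC. The 8 markers of Langerhans and dendritic cells went the other way, at 113 to 125 FPKM in DNCB and 199 to 303 in control, with 4 called lower.

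Markers of the tissue around the immune cells also differed. The 5 endothelial markers, from a cell type in which Fcgrt is known to act, summed to 35.8 to 43.9 FPKM in DNCB and 19.1 to 26.5 in control, and to at most 28.3 FPKM in the MSC groups. Against control 0 of the 5 were called by edgeR (2 at an unadjusted p under 0.05, 0 called by DESeq2 and 1 by limma), against scMSC 2 and against scivMSC 1. The 6 keratinocyte markers summed to 13100 to 19200 FPKM in DNCB and 5030 to 10000 in control, with 2 called higher and 1 lower, and reached 14500 FPKM in scivMSC skin. The 5 skeletal muscle markers summed to 3240 to 4880 FPKM in DNCB and 12000 to 17500 in control, with 4 called lower, and to 3390 to 8700 FPKM in the MSC groups. The sums for natural killer, T, B and eosinophil markers were at most 2.78, 4.31, 0.872 and 6.01 FPKM in any library. The part of these cell types in the results was not tested.

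The levels were also set against Csf1r, the macrophage growth factor receptor, in the same library. Fcer1g stood at 1.51 ± 0.293 times Csf1r (SD, n = 3) in DNCB and at 0.536 ± 0.0155 in control, 0.509 ± 0.104 in scMSC and 0.66 ± 0.186 in scivMSC. Control replicate 3, which was high in Fcer1g itself, had a ratio of 0.553, like control replicates 1 and 2 (0.527 and 0.526). Tyrobp was also highest in DNCB, at 2.64 ± 0.542 times Csf1r, beside 1.24 ± 0.11 in control, 1.28 ± 0.407 in scMSC and 1.16 ± 0.0913 in scivMSC. The ratios of Fcgr2b, Fcgr3, Fcgr4, Fcer1g, Tyrobp and Lilrb4a were higher in all 3 DNCB libraries than in the 9 others. The ratios of Fcgr1, Syk and Fcgrt overlapped, and that of Fcgrt was 2.1 ± 0.201 in DNCB and 3.33 ± 0.956 in control. Set against Adgre1 (F4/80), the ratio of every one of these genes but Fcgrt overlapped with that of other libraries. In scivMSC replicate 3, Adgre1 was at only 0.189 FPKM. For Fcer1g, Fcgr4 and Lilrb4a no other library reached the DNCB range. For Fcgr2b, Fcgr3 and Tyrobp the overlap did not rest on that library alone. Their ratios in scMSC replicate 2 were 2.4, 3.44 and 8.95, beside DNCB ranges of 1.46 to 2, 1.81 to 3.61 and 6.16 to 8.55. Those of Fcgr1 and Syk also overlapped with further libraries.

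**Figure D4:**
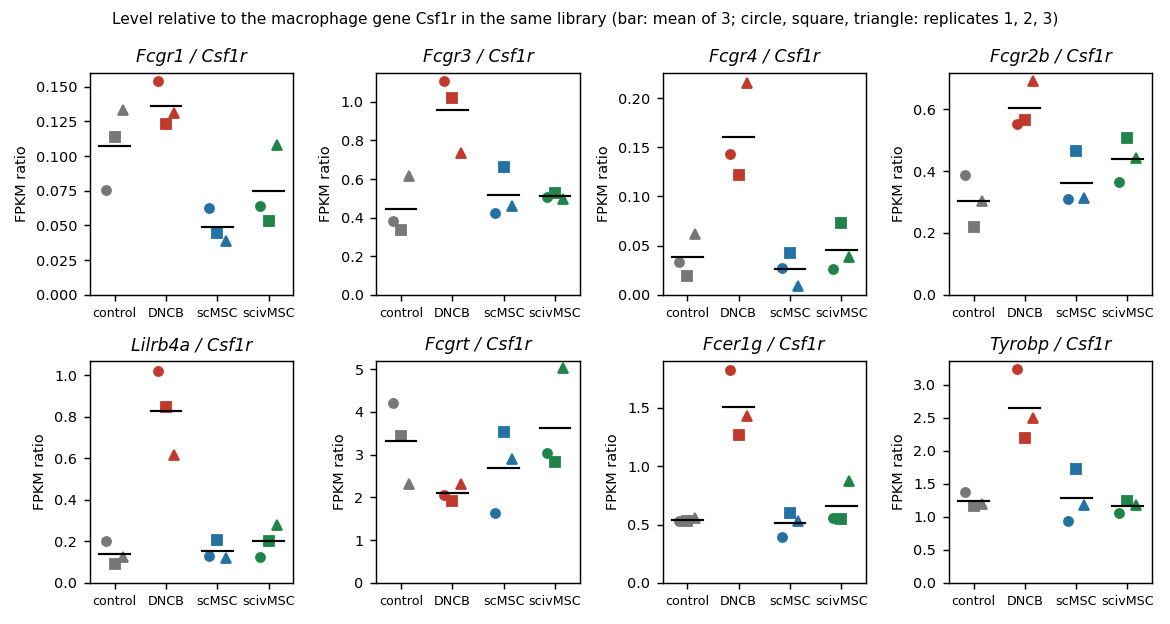
FPKM of 8 of the genes divided by the FPKM of Csf1r in the same library (vertical axes from 0), by group; bars are means of 3 libraries, and circles, squares and triangles are replicates 1, 2 and 3. For Fcer1g the DNCB libraries run from 1.27 to 1.83 and the other libraries from 0.396 to 0.875, with control replicate 3 beside the other control libraries.

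Against control, the MSC groups showed no called difference in the set. Neither scMSC nor scivMSC skin had a gene of the 9 called by edgeR, where 9.32% and 6.85% of all genes were called in either direction. At an unadjusted p under 0.05 there were 2 in scMSC and 0 in scivMSC, and DESeq2 called 1 (Fcgr1, lower in scMSC) and 0, and limma on log2(FPKM + 0.1) called 0 and 0. Fcgr1 was -1.62 ± 0.69 (log2, SE) in scMSC against control (adjusted p = 0.132) and was called without scMSC replicate 1 (-2.57, adjusted p = 0.0319). In scivMSC it was -1.51 ± 0.69 (adjusted p = 0.181). Syk was 0.59 ± 0.29 in scMSC (adjusted p = 0.183) and 0.54 ± 0.29 in scivMSC (0.251). The other 7 genes had negative values in both groups, from -1.36 to -0.06.

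Many of these signs changed without control replicate 3. Once it was left out, Fcgr2b, Fcgr3, Fcgr4, Tyrobp and Lilrb4a were above control in scMSC, by 0.33, 0.56, 0.11, 0.01 and 0.11 on the log2 scale. Fcgr2b, Fcgr3, Fcgr4, Fcer1g and Lilrb4a were then above control in scivMSC, by 0.60, 0.57, 0.98, 0.19 and 0.33. Fcgr1 stayed below control in scMSC and scivMSC (-0.68 and -0.55), as did Fcgrt (-0.58 and -0.25), Fcer1g in scMSC (-0.02) and Tyrobp in scivMSC (-0.07). Without scivMSC replicate 3 instead, Fcgr2b (0.35) and Lilrb4a (0.13) were above control in scivMSC. Syk, with control replicate 3 left out, was called higher in scMSC (1.01, adjusted p = 0.0123) and stood at 0.97 in scivMSC (adjusted p = 0.0190), short of the fold needed. With scivMSC replicate 3 also left out, a setting chosen after seeing the data, Syk was called in scMSC (1.01, adjusted p = 0.00436) and scivMSC (1.15, adjusted p = 0.00426). In that setting 7, 7 and 4 of the 9 genes were called in DNCB against control, scMSC and scivMSC. Of all 21890 tested genes, 3249, 2070 and 637 were called there in either direction.

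The routes were also compared with each other. No gene of the set was called between scMSC and scivMSC by edgeR, DESeq2 or limma, none had an unadjusted p under 0.05 in edgeR, and 0.00457% of all genes were called. The 95% interval of the log2 difference was -0.58 to 0.67 for Syk, and that of every other gene reached beyond 1 in either or both directions. It was -1.30 to 0.91 for Fcer1g, -1.60 to 1.39 for Fcgr1, -1.51 to 1.52 for Fcgr3 and -2.93 to 1.24 for Fcgr4. The data thus leave room for sizeable differences of all these genes but Syk. All 9 genes were lowest, within scivMSC, in replicate 3.

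The genes around this set were counted in lists of known pathway members. Over all tested genes, 6.59% were called higher in DNCB against control, 3.84% against scMSC and 2.33% against scivMSC. These shares apply to each list below. Of 18 tested receptors that pair with the γ chain or DAP12, 9 rose in DNCB against control, 9 over scMSC and 7 over scivMSC. The median log2 fold changes were 2.30, 3.55 and 2.95. Clec4d, which recognises mycobacterial glycolipids, was at 55, 54.5 and 33.1 FPKM in DNCB and at 4.04 FPKM or less elsewhere (log2 6.32 ± 1.24 against control, adjusted p = 0.00451). Its partner Clec4e (Mincle) was at 8.68 ± 1.93 FPKM in DNCB and 0.173 ± 0.169 in control, where it was called. Trem1 and Trem3, DAP12-coupled receptors of myeloid cells, were at 11.5 ± 3.72 and 6.54 ± 1.55 FPKM in DNCB and at 0.232 ± 0.201 and 0.113 ± 0.0984 in control, and both were called there. These receptors are known from neutrophils as well as macrophages, and the neutrophil marker sums above moved with them. Their part was not tested. Without scivMSC replicate 3, 3 of the 18 were called against scivMSC, and without control replicate 3, 6 against control.

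Of 16 tested inhibitory receptors of the ITIM list, 5, 10 and 6 rose in DNCB against control, scMSC and scivMSC. Cd300lf, an inhibitory receptor for lipids on myeloid cells, was at 8.7 ± 0.968 FPKM in DNCB and 0.0817 ± 0.0764 in control (log2 6.53 ± 0.84, adjusted p = 0.000857). Siglece, a sialic acid receptor of neutrophils and macrophages, rose by 2.64 ± 0.55 against control (adjusted p = 0.0057), by 3.34 ± 0.56 against scMSC and by 2.68 ± 0.55 against scivMSC. Lilr4b rose by 2.58 ± 0.50 against control (adjusted p = 0.00441), but its product, gp49A, is known to lack the inhibitory motif. The calls were 8 against control without control replicate 3 and 3 against scivMSC without scivMSC replicate 3.

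Of 29 tested kinases and relays of ITAM signalling, 8 rose over control, 8 over scMSC and 7 over scivMSC, and the list's medians were 0.85, 0.74 and 0.59. Lyn, Fgr, Lcp2 and Pik3ap1 rose in all 3 comparisons. Fgr, a Src-family kinase of myeloid cells, was at 4.37 ± 0.517 FPKM in DNCB and 0.529 ± 0.123 in control (log2 2.87 ± 0.58, adjusted p = 0.00522). Lcp2 (SLP-76), a scaffold downstream of Syk, was at 5.89 ± 0.458 FPKM in DNCB and 0.939 ± 0.471 in control and rose by 2.48 ± 0.43 (adjusted p = 0.00239). Pik3ap1 (BCAP), a link to phosphoinositide 3-kinase, rose by 1.82 ± 0.49 (adjusted p = 0.0195). Leaving out control replicate 3, 13 of the 29 were called against control, and without scivMSC replicate 3, 4 against scivMSC.

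Of 14 tested phosphatases and brakes, 2, 4 and 2 rose over control, scMSC and scivMSC, beside 6.59%, 3.84% and 2.33% of all genes. The list's median log2 fold changes were 0.67, 0.87 and 0.78. Dok3, an adaptor that restrains ITAM signals, rose in all 3 comparisons, by 1.5 ± 0.25 against control (adjusted p = 0.00223), 1.59 ± 0.25 against scMSC and 1.06 ± 0.25 against scivMSC. Its control libraries, at 3.15, 3.21 and 2.88 FPKM, were level, replicate 3 included. Ubash3b, a phosphatase acting on Syk, rose by 1.10 ± 0.34 against control (adjusted p = 0.0347) and 1.63 ± 0.34 against scMSC (0.0114). With control replicate 3 left out, 4 of the 14 were called against control, and without scivMSC replicate 3, 0 against scivMSC.

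Of the 6 subunits of the phagocyte oxidase, 3 rose against control, 4 against scMSC and 3 against scivMSC. Ncf4 (p40phox), a cytosolic subunit, was at 13.6 ± 0.878 FPKM in DNCB and 3.37 ± 1.97 in control (log2 1.85 ± 0.53, adjusted p = 0.0266). Cyba (p22phox), a membrane subunit, rose by 1.44 ± 0.47 (adjusted p = 0.0469). If control replicate 3 was left out, 5 of the 6 were called against control, and without scivMSC replicate 3, 0 against scivMSC.

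The other Fc receptors and the antibody ligands were counted in the same way. Fcer1a, the IgE-binding chain of the mast cell receptor that uses the γ chain, was at 2.75, 3.09 and 2.79 FPKM in DNCB and at 0.131, 0.356 and 0.108 FPKM in control. It rose by 3.60 ± 0.64 against control (adjusted p = 0.00283) and was the 1 of 6 tested other Fc receptors to do so, where 6.59% of all genes were called higher. In scMSC libraries it was at 1.49, 1.47 and 0.424 FPKM and in scivMSC libraries at 1.58, 2.33 and 0.865 FPKM, between control and DNCB, and the differences of 1.32 ± 0.58 (adjusted p = 0.178) and 0.86 ± 0.57 (0.419) were not called. The mast cell sums had the same order of group means, at 32.7 FPKM in control, 78.7 in scMSC, 82 in scivMSC and 123 in DNCB skin, with the ranges given above. Of 10 tested immunoglobulin constant regions edgeR called 0 higher and 2 lower in DNCB than in control, where 7.57% of all genes were called lower. In either direction 3 had an unadjusted p under 0.05, DESeq2 called 3 and limma on log2(FPKM + 0.1) called 2. The list's median log2 fold change was above 0, at 1.33 against control, 1.23 against scMSC and 0.80 against scivMSC. Over all tested genes these medians were 0.02, -0.02 and -0.02. The 2 genes called lower therefore do not stand for the list. Ighm, the IgM heavy chain, fell by 1.71 on the log2 scale (SE 0.42, adjusted p = 0.0129), from 14.4 ± 5.69 FPKM in control to 4.92 ± 1.07 in DNCB. The other was Ighd. Without control replicate 3, 1 of the 10 was called lower.

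**Figure D5:**
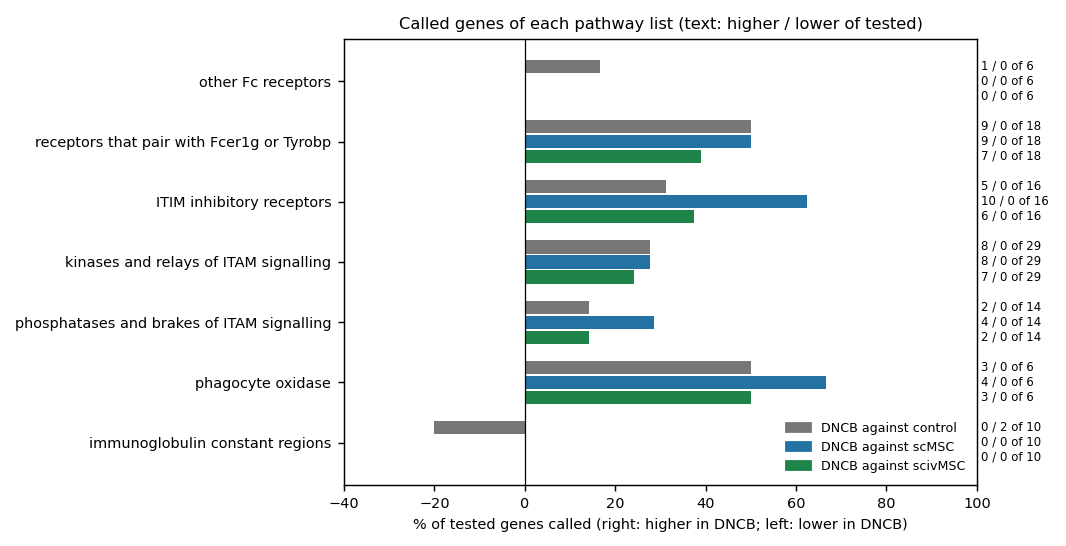
Percent of tested genes of each pathway list that were called in DNCB against control, scMSC and scivMSC (bars to the right, higher in DNCB; to the left, lower), with counts at the right edge. The receptors that pair with the γ chain or DAP12 and the phagocyte oxidase reach 9 of 18 and 3 of 6 against control, and immunoglobulin constant regions have bars only to the left.

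Across the 12 libraries the genes of the set ran closely together, as a description that the group differences and the libraries that stood apart also shape. On log2(FPKM + 0.1), Fcer1g and Tyrobp had a Pearson r of 0.975, Fcgr2b and Fcgr3 0.965, and Fcer1g and Lilrb4a 0.965. The weakest pairs were Fcgrt with Syk (0.484) and Fcgr1 with Syk (0.565). Among 14386 other genes whose mean reached 1 FPKM, those most like Fcer1g were Ptprc (CD45, r = 0.989), Lcp1 (0.987), AB124611 (0.987), Lcp2 (0.984) and Tlr6 (0.984). Those most like Fcgrt were C1qc (0.967), Adgre1 (0.962) and Cfb (0.961), and C1qc and Adgre1 are macrophage genes. With a pseudocount of 1, Lcp2 and Tlr6 gave way to Itgb2 and Igsf6, and the Fcgrt list held the same 3 genes.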

How the data were processed

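RNA from dorsal skin was analysed in 12 libraries, 3 per group. The methods do not say whether each library came from a single mouse. The authors deposited FPKM, which correct for the length of a gene and the size of a library, and estimated counts per gene as whole numbers, not normalized between libraries. Processing notes of the submitters name Bowtie 0.12.2, HISAT2 2.0, StringTie 1.3.0 and mm8 with no role, whereas the coordinates in the file match GRCm38 (GENCODE M21). The counting tool and its use of strand are not given in the sources used here.

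Genes were tested where their average over the 12 libraries reached 0.1 FPKM (21890 genes). The test was edgeR's (4.0.16, in R 4.3.3) quasi-likelihood F-test on the deposited estimated counts, with TMM normalization (factors 0.887 to 1.06) and the 4 groups in 1 model. The common biological coefficient of variation was 0.42. All p-values were two-sided and adjusted by Benjamini and Hochberg over all genes tested, and calls needed an adjusted p under 0.05 with a log2 fold change beyond 1 in either direction. Standard errors were derived from the F statistic and intervals from the t distribution. Levels, ratios and shares used FPKM. The step was tested on simulated data with known changes.

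Alternatives were DESeq2 1.42.0, limma 3.58.1 on log2(FPKM + 0.1) and log2(FPKM + 1), library size alone, other filters, counts divided by 4, the 6 libraries of a comparison fitted alone, a replicate block and each library left out. The members and lists were chosen with earlier results of these data known. From each pathway list, up to 4 called genes with the largest change against control and a mean of at least 1 FPKM are described in detail, apart from some that are counted in their list but not reported here by name. Other called genes, Lyn, Ighd, Itgam and Mpo among them, are named to complete a count and were chosen after their values were seen. Fcrl5 was not analysed here. The labels name no batch.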

Additional observations from a re-analysis of the deposited data

How the results depend on the processing

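Among the values of single genes across the alternatives, 1049 kept their direction and their side of the call, 25 lost a call, 60 gained one and 54 changed sign, and in no comparison of DNCB with another group did a called value change sign. Lilrb4a kept its 3 calls in all alternatives. The cause of the changes was not tested. Depth limits Fcgr4 most, with 10 to 65 estimated counts per scMSC library. With 3 libraries per group, leaving 1 out moved the number of the 9 genes called from 3 to between 2 and 7 against control, from 4 to between 2 and 7 against scMSC, from 3 to between 1 and 4 against scivMSC, and from 0 to between 0 and 1 in scMSC against control. DESeq2 called 6, 7 and 7 of the 9 in DNCB against control, scMSC and scivMSC, and 1 in scMSC against control. Over all genes DESeq2 also called more in these 4 comparisons. It called 3747, 2501, 1884 and 2670, where the main test called 3098, 1861, 1195 and 2040. Limma called 6 on log2(FPKM + 0.1) and 7 on log2(FPKM + 1) against control, and 5 on log2(FPKM + 1) against scivMSC. Over all genes these limma settings gave 3576, 2091 and 999 calls. The 6 libraries of DNCB and scMSC fitted alone gave 7 of the 9, and 1869 of all genes. Over all genes, leaving 1 library out gave 1222 to 2008 calls for DNCB against scMSC (1861 with all libraries), 476 to 1442 against scivMSC (1195), 843 to 1798 for scivMSC against control (1500) and 1 to 5 between the MSC groups (1). DESeq2 gave 1884 calls for DNCB against scivMSC and 116 between the MSC groups, where limma on log2(FPKM + 0.1) gave 2 and the 6 libraries alone 3. Limma on log2(FPKM + 1) gave 1300 for scMSC against control, and the 6 libraries alone 796 for scivMSC against control.

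Same-numbered libraries of different groups did not deviate together (18 pairs, r = -0.164 to 0.115, 1 above 0.1), so the numbers were not taken as pairs. With the replicate number as a block, 2 of the 9 genes were called against scMSC, since Fcgr4 (3.57, adjusted p = 0.0907) and Tyrobp (2.23, 0.0604) were lost, and Tyrobp was lost against scivMSC (2.34, 0.0723). Fcgr3 between the MSC groups was -0.000195 under the block.

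Log2 values that changed sign belong to differences that were not called. In DNCB against control, Fcgrt ran from -0.159 to 0.326 with 1 library left out. In scMSC against control the ranges were -0.76 to 0.329 for Fcgr2b, -1 to 0.562 for Fcgr3, -2.06 to 0.112 for Fcgr4, -0.898 to 0.0148 for Tyrobp and -0.844 to 0.11 for Lilrb4a. In scivMSC against control they were -0.638 to 0.601 for Fcgr2b, -0.988 to 0.575 for Fcgr3, -1.66 to 0.978 for Fcgr4, -0.807 to 0.193 for Fcer1g and -0.782 to 0.334 for Lilrb4a. Between the MSC groups they were -1.07 to 0.205 for Fcgr1, -0.721 to 0.323 for Fcgr2b, -0.466 to 0.396 for Fcgr3, -1.55 to 0.296 for Fcgr4, -0.59 to 0.087 for Fcer1g, -0.365 to 0.565 for Tyrobp, -0.141 to 0.223 for Syk and -0.643 to 0.374 for Lilrb4a. Without control replicate 3 and scivMSC replicate 3 together, 7, 7 and 4 of the 9 genes were called in the DNCB comparisons. Over all genes, 3249, 2070 and 637 were called there. In each MSC group against control 1 of the 9 genes was called, beside 2139 of all genes in scMSC and 1802 in scivMSC. In scMSC against control, Fcgr2b was then 0.329, Fcgr3 0.562, Fcgr4 0.112, Tyrobp 0.0149 and Lilrb4a 0.11. In scivMSC against control, Fcgr2b was 1.05, Fcgr3 1.03, Fcgr4 1.45, Fcgrt 0.116, Fcer1g 0.569, Tyrobp 0.38 and Lilrb4a 0.7. Between the MSC groups, Fcgr3 was -0.466, Tyrobp -0.365 and Syk -0.141. Among the other settings, Fcgr2b in scivMSC against control was 0.112 with library size alone and 0.0302 with limma on log2(FPKM + 1). Fcgr3 between the MSC groups was -0.0227 with library size alone, -0.0138 with no filter and -0.000761 with the 6 libraries alone.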
